A study of Homo sapiens with 6 samples.

Results

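The 10 genes described here form the MYC, MAX and MLX network of transcription factors. They were taken from the gene count table by gene name: MYC, its partner MAX, the antagonists MXD1, MXD3, MXD4, MXI1, MNT and MGA, and the parallel pair MLX and MLXIP. All 10 of 10 were found among 58735 genes, and all 10 were among the 15530 genes that passed the low-count filter. They were measured by RNA sequencing in HuCCT1, an established human cholangiocarcinoma (bile duct cancer) cell line, in 3 siC1QBP libraries, from cells treated with small interfering RNA (siRNA) targeting C1QBP, and 3 siNC libraries, from cells treated with control siRNA. C1QBP encodes a protein found mainly in the mitochondrial matrix, and the series title names c-Myc, with PAICS and FAK, as part of a loop with C1QBP. All libraries come from this single line; the siRNA sequences and the time after transfection are not given in the labels.

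MYC is a helix-loop-helix leucine zipper protein that binds DNA as a dimer with MAX, at the E-box sequence CACGTG and close variants, and promotes growth, ribosome production and metabolism. The MXD proteins, MXI1, MNT and MGA also pair with MAX and occupy the same sites. The MXD proteins, MXI1 and MNT recruit SIN3 corepressors there, while MGA works within a Polycomb complex. MLX pairs with MLXIP (MondoA), a sensor of glucose-derived metabolites, and can also pair with MNT and some MXD proteins, which links both arms.

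Because the members act through the E-box, the promoter windows of the members themselves were searched for it. RefSeq promoters (build GRCh38.p14; 250 bases before to 50 after each gene start, 14 windows for 9 members; MYC has no entry) were scanned on both strands for CACGTG and for CACGCG, a variant that MYC and MAX also bind. CACGTG occurred in the windows of MXD4, MNT and MLX, and in 7.26% of 35116 promoters of the same length. CACGCG occurred in windows of MXI1 and, as its reverse complement CGCGTG, of MXD3 and MGA, and in 11.4% of the same promoters. Capitals mark the match, read 5′ to 3′ on the gene's strand. In the first 3 lines it lies 238 to 233, 193 to 188 and 50 to 45 bases before the gene start, in that order, and in MXD3 it lies 8 to 13 bases after it. MXD3 is shown because it changed most among the members.
MXD4, chr4:2262330-2262359, minus strand: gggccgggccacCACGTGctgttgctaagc
MNT, chr17:2401236-2401265, minus strand: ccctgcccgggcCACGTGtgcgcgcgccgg
MLX, chr17:42567038-42567067, plus strand: gcgggcgcgggtCACGTGggcacgccaccc
MXD3, chr5:177312727-177312756, minus strand: aaaaggccatttCGCGTGcctccagggtat
The MXD4, MNT and MLX windows lie before the gene starts of the deposited table, and the MXD3 window lies inside the gene, at its first bases. In MXD3 the word TTTCGCG, 5 to 11 bases after the start, overlaps the CACGCG variant. TTTCGCG was searched as a word of E2F-type sites and occurs in 1.32% of the 35116 promoters. A match is a description of these letters only.

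The siC1QBP libraries held 17122252 to 18847340 counts each, and those of siNC 18313264 to 20416243. C1QBP, the siRNA target, stood at 32.7% of its siNC level (95% interval 30.4% to 35.1%). Markers of biliary epithelium (KRT7, KRT19, EPCAM and 5 others, 8 of 8 tested) summed to 7528 to 7878 and 8343 to 8844 CPM (counts scaled to library size, with the TMM method) in siC1QBP and siNC libraries. Most of that gap lay in KRT7, at 3105 to 3226 CPM in siC1QBP and 3683 to 3826 CPM in siNC libraries, while CFTR (27.4 to 33.0 and 19.95 to 23.1 CPM in siC1QBP and siNC libraries) and SOX9 (62.2 to 68.2 and 55.1 to 60.9 CPM) lay the other way. The fibroblast markers COL1A1, COL1A2, DCN and LUM (2 of 4 tested) summed to 47.2 to 49.8 CPM in siC1QBP and 35.1 to 37.4 CPM in siNC libraries, nearly all of it COL1A1, at 35.7 to 40.1 and 26.1 to 30.3 CPM, and LUM; COL1A2 was at 0 in all siC1QBP libraries and at most 0.659 CPM in siNC libraries. Of the hepatocyte markers SERPINA1 was at 463 to 534 CPM in siC1QBP and 431 to 440 CPM in siNC libraries, and ALB and TTR were at or near 0 in both. The leukocyte markers PTPRC, CD3E and LST1 summed to at most 0.278 CPM. The part of these marker differences in the results below was not tested. Replicate 1 of siC1QBP stood apart from its group: the chi-square per degree of freedom over genes was 6.66 and 6.77 against replicates 2 and 3, and 2.09 between those. To a lesser degree so did replicate 1 of siNC, at 3.67 and 3.40 against siNC replicates 2 and 3, and 2.13 between those. Results without siC1QBP replicate 1 are given for MYC, MXD3, MLXIP and some other genes and counts, but not for every gene named below. The share of counts in mitochondrially encoded genes was 4.20% to 4.80% in siC1QBP and 3.66% to 3.88% in siNC libraries. With these genes left out, MYC (log2 fold change -0.24, edgeR adjusted p = 0.01002) and MXD3 (-0.60, 0.00125) were still called lower, and no other member was called.

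MYC and the antagonist MXD3 fell in siC1QBP cells, and the other 8 members did not pass the test. A gene was called at an adjusted p under 0.05 in the quasi-likelihood test of edgeR with Benjamini-Hochberg adjustment over all 15530 genes. By this rule 2 of the 10 members were called, both lower; over all genes tested 14.3% were called, 7.84% lower and 6.47% higher. With library size as the only scaling the split over all genes turned from 1005 higher and 1217 lower to 1253 higher and 908 lower, while MYC and MXD3 stayed lower. None of the members was called higher by the main edgeR fit, DESeq2 or limma-voom, while some other edgeR settings called MLXIP higher, as given below. In the main fit 3 members had an unadjusted edgeR p under 0.05, MYC, MXD3 and MLXIP. The median log2 fold change of the 10 members was -0.03, against 0.0026 over all genes tested. The members' median absolute log2 fold change was 0.07, against 0.14 over all genes. The CPM of both groups did not overlap for 5 of the 10 members, and for 32.6% of all genes tested.

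**Figure D1:**
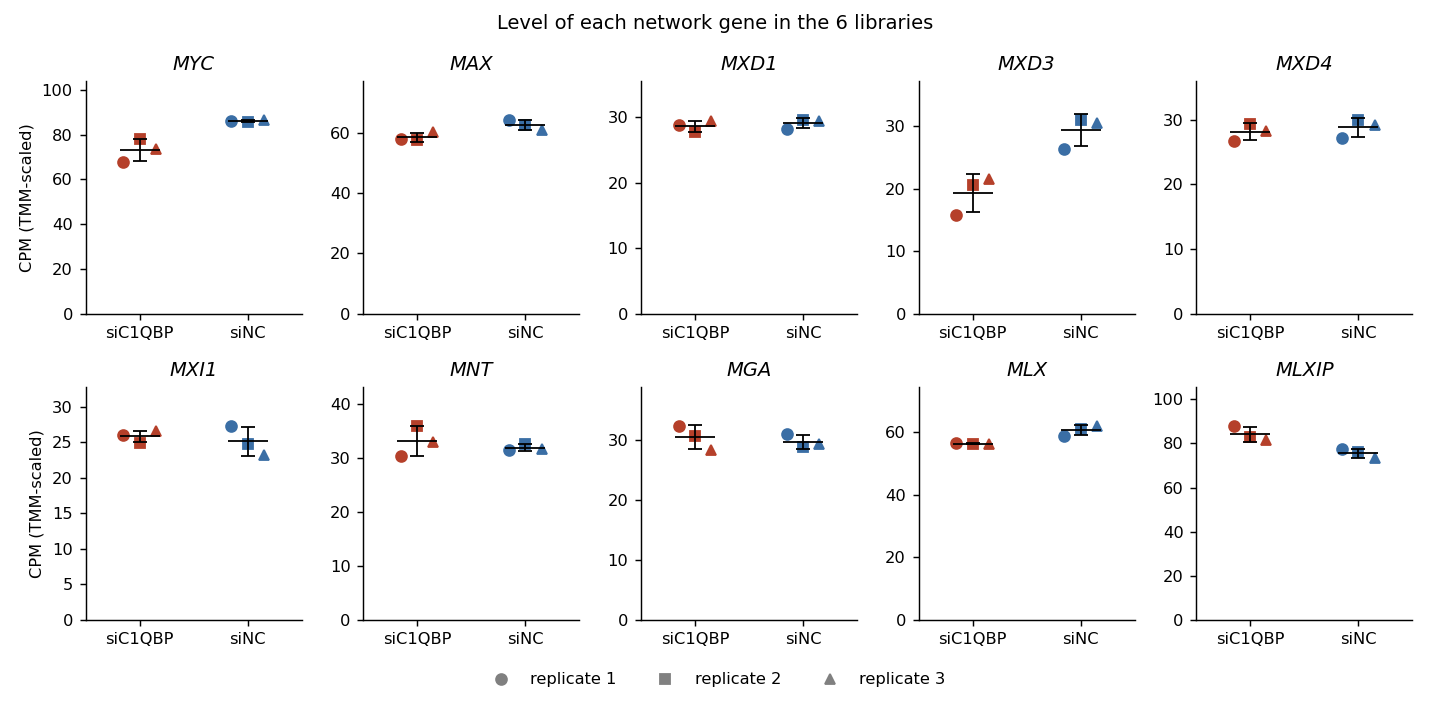
CPM of the 10 network genes in each library, siC1QBP on the left and siNC on the right of each panel; symbols are replicates, the horizontal line is the mean and the bar the SD of 3 libraries. MYC and MXD3 lie lower in all 3 siC1QBP libraries than in any siNC library, and siC1QBP replicate 1 is the lowest library for both.

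MYC (ENSG00000136997; hg38 chr8:127735434-127741434, plus strand) had 68.0, 78.2 and 73.4 CPM in siC1QBP replicates 1, 2 and 3, against 86.2, 85.5 and 86.7 CPM in siNC replicates 1, 2 and 3. The groups did not overlap, the siC1QBP libraries spread more widely than the siNC libraries, and replicate 1 was the lowest. The raw counts behind these values were 1223, 1355 and 1398 in siC1QBP and 1570, 1723 and 1591 in siNC libraries. MYC stood at 85.0% of its siNC level (95% interval 78.2% to 92.3%), a log2 fold change of -0.23 (SE 0.06; edgeR adjusted p = 0.0101). Its coefficient of variation was 6.98% in siC1QBP and 0.678% in siNC libraries. Without siC1QBP replicate 1 the log2 fold change was -0.19 (edgeR adjusted p = 0.0148). The call was closest to the threshold without siNC replicate 3 (log2 fold change -0.23, edgeR adjusted p = 0.0499). In a bulk measurement such as this, fewer cells with MYC RNA and less MYC RNA per cell cannot be told apart. By p-value MYC ranked 1059 among the 15530 genes tested, and 71.0% of them had a smaller or equal absolute fold change.

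MAX (ENSG00000125952; chr14:65006174-65102695, minus strand), the obligate partner of MYC and a partner of its antagonists, had 58.0, 57.6 and 60.3 CPM in siC1QBP replicates 1 to 3, against 64.4, 62.7 and 60.9 CPM in siNC replicates 1 to 3. All siC1QBP values lay below all siNC values, though the highest siC1QBP and the lowest siNC library were close. The log2 fold change was -0.10 (SE 0.05, 95% interval -0.21 to 0.02; edgeR adjusted p = 0.270), and none of the 17 alternative settings called it. On the same gene, the annotated antisense RNA AL139022.1 overlaps 4.15% of the MAX exon bases and held at most 11 counts in any library.

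Among the MXD genes, MXD3 (ENSG00000213347; chr5:177301461-177312757, minus strand) was the member with the greatest change of the 10. Its mouse counterpart is known to be expressed in S phase of dividing cells. It had 15.8, 20.6 and 21.6 CPM in siC1QBP replicates 1 to 3, against 26.4, 31.0 and 30.6 CPM in siNC replicates 1 to 3. The groups did not overlap, and replicate 1 was the lowest library in each group. MXD3 fell to 65.9% of its siNC level (95% interval 56.6% to 76.7%), a log2 fold change of -0.60 (SE 0.10; edgeR adjusted p = 0.00113). This interval lies wholly below that of MYC; the difference between both genes was not tested. Of all genes tested, 94.4% had a smaller or equal absolute fold change. Without siC1QBP replicate 1 the log2 fold change was -0.48 (edgeR adjusted p = 0.000570), and over all 17 alternatives it ranged from -0.69 to -0.48 with the call kept in each.

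MXD3 shares exon bases with neighbours, and no source used here gives the strand setting of the authors' counting, so reads from the shared bases could have gone to either gene. PRELID1, on the opposite strand, covers 1158 bases or 22.5% of the MXD3 exons, and RAB24, on the same strand, covers 926 bases or 18.0%. PRELID1, a mitochondrial lipid transfer protein, was at 111 ± 3.15 CPM in siC1QBP cells, against 153 ± 11.8 CPM in siNC cells (SD, n = 3 each; log2 fold change -0.47, edgeR adjusted p = 5.18e-05). RAB24, a small GTPase, was at 5.96 ± 1.80 CPM in siC1QBP cells, against 8.06 ± 0.858 CPM in siNC cells (SD, n = 3 each; log2 fold change -0.43, edgeR adjusted p = 0.120). Both neighbours were named for their overlap, and their part in the MXD3 value was not tested.

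The other MXD genes showed no such difference. MXD1 (ENSG00000059728; chr2:69897688-69942945, plus strand), a repressor linked to differentiation, ranged from 27.7 to 29.3 CPM in siC1QBP cells, against from 28.2 to 29.6 CPM in siNC cells. MXD4 (ENSG00000123933; chr4:2247432-2262294, minus strand) ranged from 26.7 to 29.4 CPM in siC1QBP cells, against from 27.2 to 30.0 CPM in siNC cells. MXI1 (ENSG00000119950; chr10:110207605-110287365, plus strand), the MXD-family member also called MAX interactor, ranged from 24.9 to 26.5 CPM in siC1QBP cells, against from 23.3 to 27.3 CPM in siNC cells. In these 3 genes the groups overlapped. Relative to siNC the 95% intervals were 88.9% to 109% for MXD1, 87.7% to 109% for MXD4 and 91.6% to 115% for MXI1, so a fall as deep as that of MXD3 lies outside all of them. The lowest edgeR adjusted p of the 3 was 0.783. SNRNP27, on the same strand, overlaps 3.73% of the MXD1 exon bases.

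MNT (ENSG00000070444; chr17:2384060-2401118, minus strand), the broadly expressed antagonist that can pair with both MAX and MLX, had 30.3, 35.9 and 32.9 CPM in siC1QBP replicates 1 to 3, against 31.4, 32.5 and 31.7 CPM in siNC replicates 1 to 3. The siC1QBP values spread on both sides of the siNC values, with replicate 2 the highest. MNT was at 104% of its siNC level (95% interval 93.0% to 115%; edgeR adjusted p = 0.699). MGA (ENSG00000174197; chr15:41621224-41773081, plus strand), a large T-box protein that pairs with MAX, had 32.4, 30.8 and 28.4 CPM in siC1QBP replicates 1 to 3, against 31.1, 28.8 and 29.5 CPM in siNC replicates 1 to 3. The groups overlapped, and MGA was at 102% of its siNC level (95% interval 92.0% to 114%; edgeR adjusted p = 0.800). The sign of the MNT change turned without siC1QBP replicate 2, and that of MGA without siC1QBP replicate 1, each at an edgeR adjusted p above 0.9.

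MLX and MLXIP differed in opposite directions, both short of the threshold. MLX (ENSG00000108788; chr17:42567068-42573239, plus strand) had 56.5, 56.4 and 56.2 CPM in siC1QBP replicates 1 to 3, against 59.0, 61.1 and 62.1 CPM in siNC replicates 1 to 3. The groups did not overlap, and the siC1QBP libraries were nearly equal, with a coefficient of variation of 0.309%. The log2 fold change was -0.11 (SE 0.05, 95% interval -0.22 to 0.0064; edgeR adjusted p = 0.200). PSMC3IP, on the opposite strand, covers 18.1% of the MLX exon bases; it was at 15.7 ± 0.587 CPM in siC1QBP cells, against 17.4 ± 1.62 CPM in siNC cells (SD, n = 3 each), with an edgeR adjusted p of 0.320.

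MLXIP (ENSG00000175727; chr12:122078722-122147347, plus strand) had 87.9, 82.9 and 81.4 CPM in siC1QBP replicates 1 to 3, against 77.3, 75.9 and 73.3 CPM in siNC replicates 1 to 3. All siC1QBP libraries lay above all siNC libraries, with siC1QBP replicate 1 the highest. MLXIP was at 111% of its siNC level (95% interval 103% to 120%), a log2 fold change of 0.15 (SE 0.05; edgeR adjusted p = 0.0605). It passed the threshold in 5 of the 17 alternative settings, among them upper-quartile scaling (0.0313), library size as the only scaling (0.0295) and protein-coding genes only (0.0389; edgeR adjusted p throughout). Without siC1QBP replicate 1 its edgeR adjusted p was 0.126. Fold changes across all genes moved with gene length: of 5 groups of 3106 genes by length, the shortest had 90 higher and 354 lower, and the longest, which holds MLXIP, MNT and MGA, had 396 higher and 99 lower. With each library's trend with gene length removed, the log2 fold change of MLXIP was 0.08 (edgeR adjusted p = 0.305), that of MYC -0.19 (0.0205) and that of MXD3 -0.59 (0.000979).

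**Figure D2:**
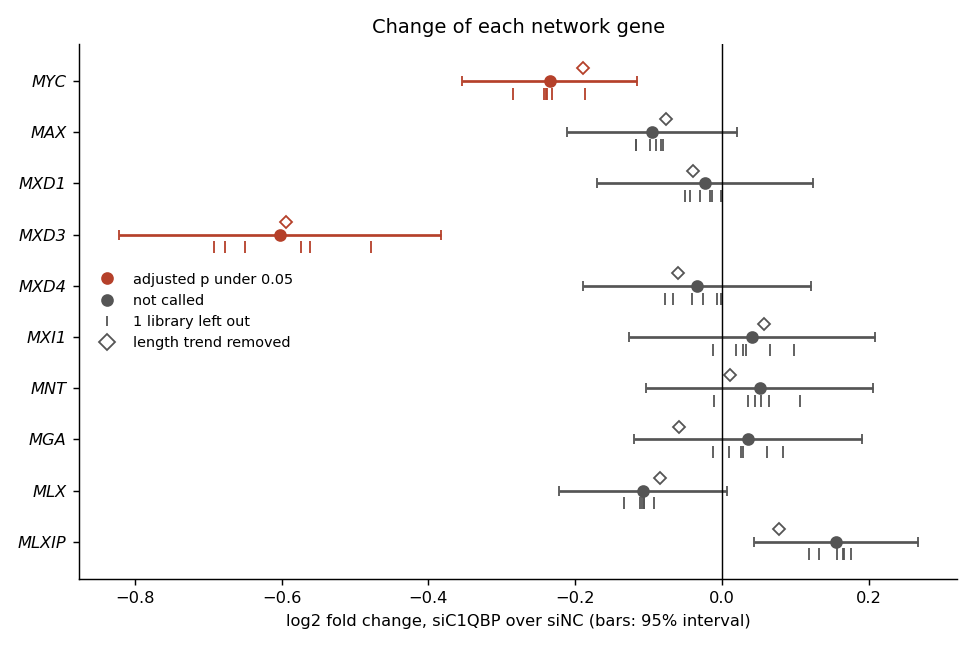
Log2 fold change of each network gene, siC1QBP over siNC, with its 95% interval (circles and bars); ticks below each bar are the values with 1 library left out and the open diamond is the value after removal of the length trend. The intervals of MYC and MXD3 lie below 0 and those genes are called, and the MLXIP interval lies above 0 without passing the adjusted threshold.

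Levels of different genes were compared as TPM, in which each count is divided by the gene's exon length in the deposited table and then scaled to the library's sum. MYC was the most abundant member in both groups, at 89.3 ± 6.02 TPM in siC1QBP and 103 ± 1.49 TPM in siNC libraries (SD, n = 3 each). MAX was at 48.5 ± 1.41 and 50.9 ± 1.90 TPM, and MLX at 48.5 ± 0.189 and 51.3 ± 0.893 TPM, in siC1QBP and siNC libraries in that order. The ranges of MAX and MLX overlapped within each group. MGA was the least abundant, at 6.33 ± 0.405 TPM in siC1QBP and 6.07 ± 0.302 TPM in siNC libraries. In the siC1QBP libraries the 6 genes between ran MLXIP, MXI1, MXD1, MXD4, MNT and MXD3, with means of 22.1 to 13.7 TPM; the ranges of MXD4, MNT and MXD3 overlapped. In the siNC libraries MXD3, MXI1 and MLXIP, with means of 20.5 to 19.5 TPM, overlapped, and MXD1, MXD4 and MNT followed at 16.5 to 13.1 TPM without overlap.

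MXD3 therefore took place 9 of 10 in siC1QBP and place 4 in siNC libraries. The exon length of MXD3 in the table, 5154 bases, is well above its longest CCDS transcript (a transcript with an agreed coding sequence) of 2269 bases. With that length for every member, an alternative added after seeing the data, MXD3 took place 5 in siC1QBP and place 4 in siNC libraries, at 8.51 ± 1.37 and 12.9 ± 1.12 CPM per kilobase (SD, n = 3 each). The order among the members thus depends on the length used. Dividing counts by another fixed length leaves a gene's own fold change as it was, unlike removal of the length trend.

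**Figure D3:**
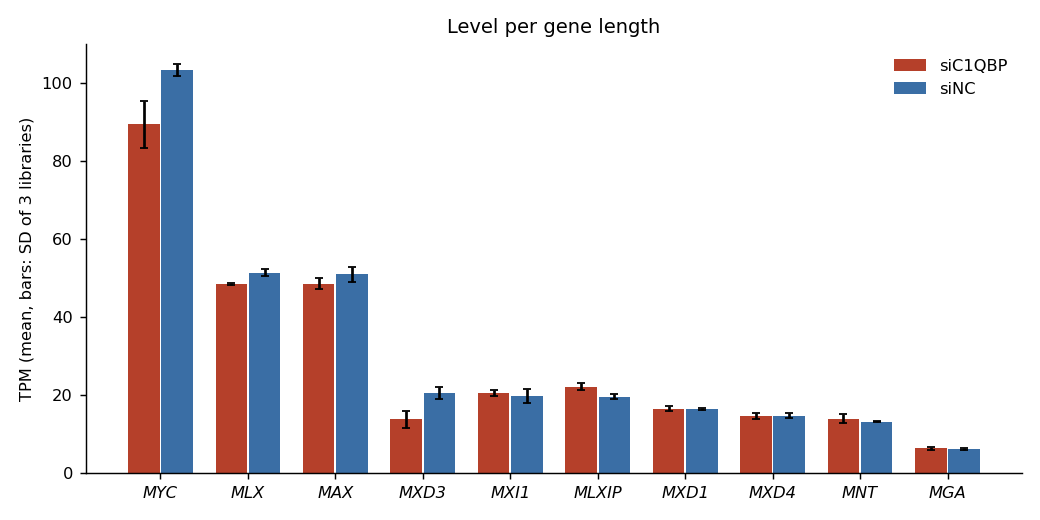
Mean TPM of each network gene in siC1QBP (left bar) and siNC (right bar) libraries, ordered by the siNC mean; error bars are the SD of 3 libraries. MYC is highest in both groups, MXD3 stands at 13.7 TPM in siC1QBP and 20.5 TPM in siNC libraries, and MXD1 and MXD4 are nearly level.

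Ratios between members were formed within each library, where scaling cancels, and are given as descriptions without a test. The summed TPM of the 6 antagonists over that of MYC was 0.986, 0.912 and 0.979 in siC1QBP replicates 1 to 3, against 0.860, 0.901 and 0.868 in siNC replicates 1 to 3. The siC1QBP ratios lay above the siNC ratios, although the summed antagonist level itself was 81.9 to 88.1 TPM in siC1QBP and 89.7 to 91.5 TPM in siNC libraries. The trend of fold change with gene length was not removed from these ratios, and MYC is shorter than each of the antagonists. With the longest CCDS transcript as length the ratios were 1.20, 1.14 and 1.22 in siC1QBP and 1.09, 1.16 and 1.12 in siNC libraries, and the groups overlapped. The ratio of MAX to MYC was 0.578, 0.499 and 0.557 in siC1QBP and 0.507, 0.497 and 0.476 in siNC replicates 1 to 3, with overlap.

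Within the MXD genes (MXD1, MXD3, MXD4 and MXI1), MXD3 made up 18.0%, 22.3% and 22.5% of the summed TPM in siC1QBP replicates 1 to 3, against 26.5%, 29.6% and 30.0% in siNC replicates 1 to 3. These shares did not overlap. The ratio of MLXIP to MLX was 0.476, 0.450 and 0.444 in siC1QBP and 0.401, 0.381 and 0.362 in siNC replicates 1 to 3. It was higher in every siC1QBP library. The trend with gene length was not removed from this ratio; with it removed, the log2 fold changes were 0.08 for MLXIP and -0.09 for MLX (edgeR adjusted p = 0.305 and 0.296).

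**Figure D4:**
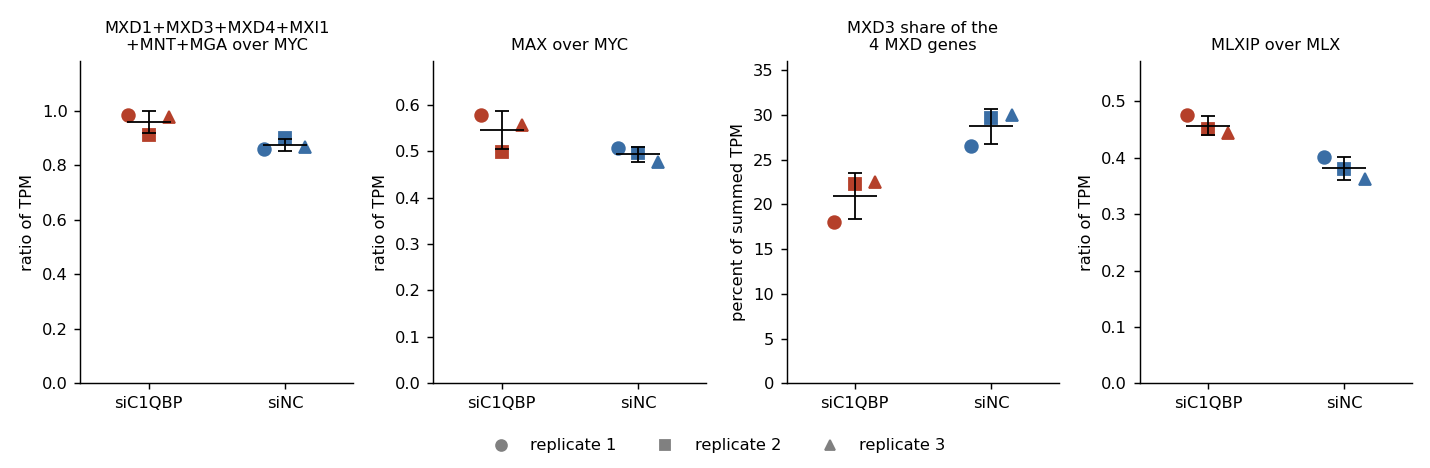
Ratios of TPM between network genes in each library, siC1QBP on the left and siNC on the right of each panel; symbols are replicates, the horizontal line is the mean and the bar the SD of 3 libraries. The MXD3 share of the MXD genes is 18.0% to 22.5% in siC1QBP and 26.5% to 30.0% in siNC libraries, and the ratio of MLXIP to MLX is higher in all 3 siC1QBP libraries.

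The genes with the pattern most like that of MYC and MXD3 were found among 10617 protein-coding genes with at least 5 CPM, by the root-mean-square difference of log2 CPM centred on the mean of the 6 libraries. The closest to MYC were ZNF449 (0.0245), HMGN3 (0.0249) and MT1E (0.0252). Their log2 fold changes were -0.27, -0.25 and -0.20, with edgeR adjusted p of 0.0695, 0.0280 and 0.0490; the call of HMGN3 was lost in 6 and that of MT1E in 11 of 17 alternatives. The closest to MXD3 were SDF2L1 (0.0484), MRPL14 (0.0487) and ZNF511 (0.0495), with log2 fold changes of -0.53, -0.52 and -0.53 and edgeR adjusted p of 0.00182, 0.00109 and 0.00502. Without siC1QBP replicate 1 these fold changes were -0.41, -0.39 and -0.38, and the calls were kept in all 17 alternatives. All these genes were picked for their likeness over the same 6 libraries. Their lower levels in siC1QBP libraries therefore follow from the choice and are a description only.

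Genes around the network were read from lists of partners, regulators and targets, and their changes are given on the log2 scale beside the median of 0.0026 over all genes tested. Of all genes tested, 7.84% fell and 6.47% rose. These shares change with gene length, as given above, and the lists were not matched for length. MYC's paralogs were scarce: MYCL was at 2.17 ± 0.765 CPM in siC1QBP cells, against 1.95 ± 0.145 CPM in siNC cells, MLXIPL, the paralog of MLXIP, at 1.34 ± 0.391 and 0.760 ± 0.102 CPM (SD, n = 3 each), neither called, and MYCN did not pass the low-count filter. Of 52 listed genes known to be activated by MYC, 51 were tested, of which 13 fell (25.5%), 2 rose (3.92%) and 36 did not pass; their median log2 fold change was -0.09. RRS1, a ribosome assembly factor, fell by 0.40 (SE 0.06), the hexokinase HK2 by 0.58 (SE 0.06) and lactate dehydrogenase LDHA by 0.26 (SE 0.04). NOLC1, a nucleolar phosphoprotein, rose by 0.66 (SE 0.05) and the glutamine carrier SLC1A5 by 0.15 (SE 0.05). The number that fell was 22 without siC1QBP replicate 1 and 10 without siNC replicate 2 or 3, and the SLC1A5 call was lost without any of the 6 libraries. Of 11 tested genes known to be repressed by MYC, the CDK inhibitor CDKN2B rose by 0.37 and CDKN2C fell by 0.54, and 9 did not pass (median -0.06); the number that fell was 2 without siC1QBP replicate 3 or siNC replicate 1. Of 4 tested glucose-response targets of the Mondo proteins with MLX, the glycolytic regulator PFKFB3 fell by 0.35 and 3 did not pass (median -0.04).

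Among the called regulators of MYC itself more fell than rose, while of all genes tested 7.84% fell and 6.47% rose. Of 24 tested genes acting on MYC protein, 7 fell (29.2%) and none rose by edgeR, with a median of -0.07: the kinase PIM3 fell by 0.39, Aurora kinase AURKA by 0.23 and the ubiquitin ligase STUB1 by 0.36, a call STUB1 lost without siNC replicate 3 (edgeR adjusted p = 0.0669). With library size as the only scaling 1 gene of this list was called higher. Of 17 tested genes acting on the MYC promoter or mRNA, 4 fell (23.5%) and 2 rose (11.8%), with a median of -0.05. The RNA-binding protein PCBP1 fell by 0.39, KHSRP by 0.20 and ZFP36L2 by 0.26. STAT3, a transcription factor, rose by 0.32, and IGF2BP3, an mRNA-binding protein, rose by 0.44, a call lost without siNC replicate 2 (edgeR adjusted p = 0.0834). Without siC1QBP replicate 1, 7 of this list fell.

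Few cofactors of either arm were called. Those lower made up 10.5% of the MYC coactivators, 11.1% of the corepressors and 8.33% of the MGA partners, against 7.84% of all genes tested. Of 19 tested MYC coactivators and partners, the ATPase RUVBL1 fell by 0.17 and ACTL6A by 0.16 (median -0.01). These calls were lost in 7 and 9 of the 17 alternatives, among them the libraries left out: RUVBL1 without siC1QBP replicate 1 or 3, ACTL6A without siC1QBP replicate 2 or 3, and each of them without siNC replicate 2 or 3. Of 18 SIN3 and NCOR corepressor genes, SAP30 fell by 0.41 and BRMS1 by 0.24 (median -0.03). SAP30 lost its call without siNC replicate 3, and BRMS1 without siNC replicate 2 or 3. Of 12 partners of MGA in its Polycomb complex, CBX3, a heterochromatin protein, fell by 0.43 (289 ± 22.9 CPM in siC1QBP cells, against 388 ± 8.86 CPM in siNC cells; SD, n = 3 each; edgeR adjusted p = 6.32e-05), and 11 did not pass (median -0.04).

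**Figure D5:**
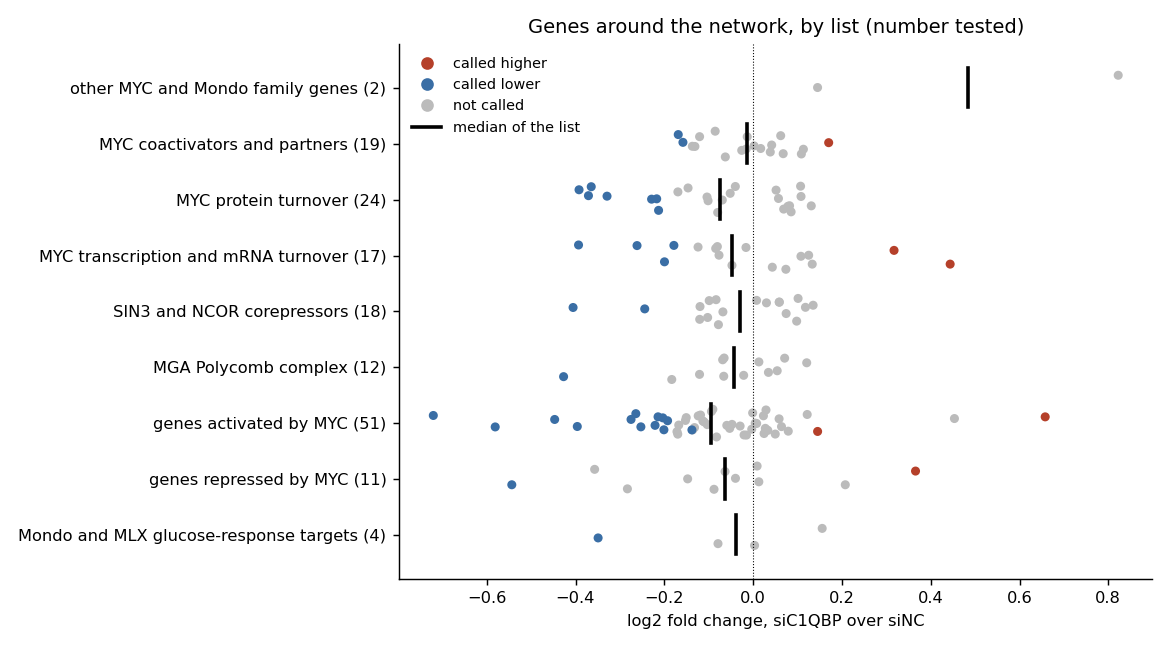
Log2 fold change (siC1QBP over siNC) of the genes around the network, 1 point per tested gene, grouped by list with the number tested in brackets; colours show the edgeR call at an adjusted p under 0.05 and the black line is the list's median. Among the 51 genes activated by MYC 13 (25.5%) are called lower and 2 (3.92%) higher, against 7.84% and 6.47% of all genes tested. The medians of all lists with more than 2 tested genes lie between -0.09 and -0.01.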

How the data were processed

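Total RNA of HuCCT1 cells was made into strand-marking NEBNext Ultra Directional libraries, per the labels' protocols. The values deposited by the authors are raw gene counts, not normalized, for 6 libraries, with gene lengths in bases. The build is hg38 per the submitters' processing notes; no aligner, counter or strand setting is given in these sources. Start and end matched GENCODE release 29 for 58724 of 58735 genes, and for 58724 the deposited length was the union of exons.

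Counts were tested with edgeR 4.0.16 (quasi-likelihood, TMM, filterByExpr, treatment only) in R 4.3.3, adjusted over 15530 genes. The fit was tested on simulated data of 15530 genes. There, 50 genes of at least 10 CPM were planted at each of 1.15-, 1.25-, 1.5- and 2-fold. It called 24% of them at 1.15-fold, 72% at 1.25-fold and 100% at 1.5-fold. Of all its calls there, 8.075% were false. Far fewer genes changed in the simulation than were called in the real data, so these shares need not hold for the real data. Fold changes are siC1QBP over siNC; intervals use the t distribution of the fit. A gene without counts could hold up to 0.149 to 0.173 CPM (3 counts, a limit for counting error alone). Since no label calls the replicates separate cultures, the spread behind the p-values may be technical. No pair of libraries agreed within sampling noise (chi-square per degree of freedom at least 2.09).

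Alternatives were DESeq2 1.42.0, limma 3.58.1 (voom), other scalings and filters, gene types, removal of the length trend (lowess per library), each library left out, the replicate block and an adjusted p under 0.01. The members and lists were chosen with earlier results of these data known. Named genes are the members, the target, and from each list up to 3 called genes each way with the smallest p, or else the 2 of highest TPM. They also include the 3 genes closest in pattern to each called member, and neighbours that overlap a member. Of the genes so chosen, 1 is not reported here. Of 164 list entries 163 matched a gene; the other was an older symbol of CIP2A.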

Additional observations from a re-analysis of the deposited data

How the results depend on the processing

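The calls of MYC and MXD3 held in all 17 alternative fits, with log2 fold changes of -0.28 to -0.19 and -0.69 to -0.48; at an adjusted p under 0.01, MXD3 was the 1 member left, and 1057 genes in all. The number of members called higher became 1 (MLXIP) with upper-quartile scaling, library size only, at least 10 CPM, protein-coding genes only or the replicate block. With 1 library left out, 1105 to 2583 genes were called in all, 524 to 1115 higher and 581 to 1468 lower, lowest without siNC replicate 2; without siNC replicate 3 the count was 1178. Signs turned, all far from the threshold, for MXD1 (0.0037 with upper-quartile scaling, 0.0018 with library size only), MGA (-0.059 without the length trend; -0.013 to 0.084 with 1 library left out, lowest without siC1QBP replicate 1), MNT (-0.012 to 0.11, lowest without siC1QBP replicate 2) and MXI1 (-0.012 to 0.098, lowest without siNC replicate 3); the cause was not tested. The median of all genes moved to at most 0.03 under another scaling. The difference between groups in antagonist over MYC level was 0.083; it was 0.065 with CCDS transcript lengths, and 0.070 to 0.107 with 1 library left out. For the MXD genes alone, without MNT and MGA, it was 0.043, with overlapping groups. Of 306 list counts under the alternatives, 40 moved by over 1.5 times.

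The deviations of same-numbered libraries from their group means correlated at 0.0433, 0.0330 and -0.0094. Those of unlike-numbered libraries correlated at -0.0478 to 0.0213. Whether same-numbered libraries share a batch cannot be told from these few values. With the replicate block 3092 genes and 3 members were called, MYC (-0.24), MXD3 (-0.61) and MLXIP (0.15, edgeR adjusted p = 0.0243). The lowest count of any member in a library was 284, in MXD3. With 3 libraries a group, the 95% intervals of the 8 uncalled members reached from 85.7% (MLX) to 120% (MLXIP) of the siNC level.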
